A study of Mus musculus with 4 samples.

Results

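Expression of 10 interferon-linked genes of the tripartite motif (TRIM) family was examined, namely Trim12a, Trim12c, Trim14, Trim21, Trim25, Trim26, Trim30a, Trim30d, Trim34a and Trim56, in MC38 mouse colon carcinoma cells treated with IFN-γ, hypoxia or both. The members were chosen by symbol, through their NCBI gene IDs, from the 27179 genes in the count table, and all 10 passed the filter on low counts. The 4 libraries were wild-type MC38 cells without IFN-γ under normoxia, without IFN-γ under hypoxia, with IFN-γ under normoxia and with IFN-γ under hypoxia, 1 library per condition. The usual IFN-γ treatment in the methods was 5 ng/mL for 24 h, and normoxia and hypoxia were 20% and 1.5% oxygen; the sample labels give neither a dose nor a time, and no second agent or genotype was used. MC38 is an established line grown in culture, so these values come from tumour cells without the host's immune cells. In bulk libraries of this kind, fewer cells with a transcript and less transcript per cell cannot be told apart.

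TRIM proteins carry a RING domain, one or more B-boxes and a coiled coil, and most of them are ubiquitin ligases through the RING domain. Many are induced by interferons and act in antiviral defence, either on a virus directly or by tuning the sensors and adaptors that lead to interferon production. IFN-γ signals through the kinases JAK1 and JAK2 to genes with a GAS element, and IRF1, which it induces, binds the interferon-stimulated response element (ISRE). Hypoxia acts in large part through the hypoxia-inducible factors.

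The promoters are shown first because 7 of the 9 members with a RefSeq promoter entry held an ISRE-like match. The window searched ran from 250 bases before to 50 bases after each annotated start (RefSeq, GRCm38.p6), and the letters searched were GAAANNGAAA, read on the other strand as TTTCNNTTTC. The same letters occurred in 3.44% of all 32851 RefSeq promoters of that length and in 3.99% of the 27025 genes they belong to. Trim25 and Trim56 held no match, and Trim14 had no entry. The GAS letters TTCNNNGAA, which read the same on both strands, matched in 0 of the 9 members, against 8.3% of all promoters and 9.55% of genes. A match is a run of letters and not a measured binding site, and its absence says only that these letters are not in the window. Each stretch below is written 5′ to 3′ on the gene's own strand, with the matched letters in capitals, and shows how alike the matches of some nearby genes are.
Trim21, chr7:102565433-102565494 (- strand): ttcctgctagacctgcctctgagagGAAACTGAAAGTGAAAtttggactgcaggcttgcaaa
Trim26, chr17:36836961-36837026 (+ strand): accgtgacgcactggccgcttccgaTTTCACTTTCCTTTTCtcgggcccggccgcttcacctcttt
Trim12a, chr7:104315451-104315510 (- strand): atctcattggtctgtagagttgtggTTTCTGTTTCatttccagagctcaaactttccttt
Trim12c, chr7:104353344-104353403 (- strand): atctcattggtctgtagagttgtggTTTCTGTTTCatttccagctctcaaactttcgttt
Trim30a, chr7:104465195-104465254 (- strand): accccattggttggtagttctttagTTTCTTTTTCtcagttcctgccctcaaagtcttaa
Trim30d, chr7:104507856-104507915 (- strand): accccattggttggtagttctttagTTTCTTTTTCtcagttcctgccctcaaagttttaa
Trim34a, chr7:104244442-104244501 (+ strand): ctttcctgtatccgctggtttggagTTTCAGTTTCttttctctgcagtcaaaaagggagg

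Trim21 and Trim26 each held 2 overlapping matches, on opposite strands relative to the gene. The Trim21 pair lay from base 14 to base 29 after the start, the first transcribed base being 1, and the Trim26 pair lay from base -160 to base -145. The Trim12a and Trim12c promoters were identical at 247 of 260 aligned bases, and the Trim30a and Trim30d promoters at 276 of 295. Trim30a has a second RefSeq start, whose window held the same 10 letters as the first. These 4 genes therefore do not give 4 independent promoter sequences.

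**Figure D1:**
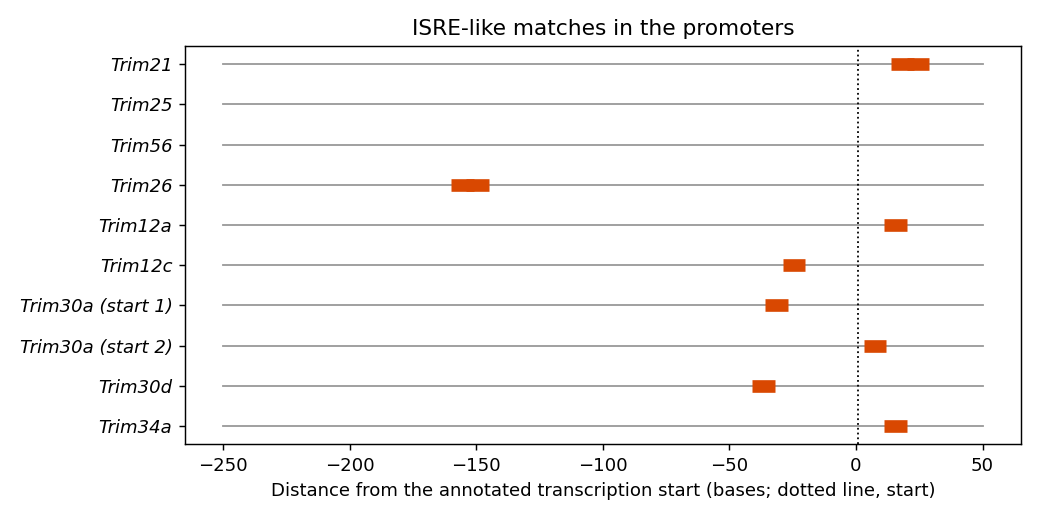
Positions of ISRE-like matches (orange bars) in the 300 bases around each RefSeq start, 250 before and 50 after, on an axis of bases from the start. All matches except the Trim26 pair lie within 41 bases of a start, and Trim25 and Trim56 hold none.

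Of the 10 members, 5 lie together on chromosome 7 between 104244448 and 104535361 (GRCm38.p6, 290.9 kb), a stretch with 19 annotated genes of which 10 are Trim genes. In order of position these members are Trim34a (104244448 to 104262244), Trim12a (104299893 to 104315558), Trim12c (104338754 to 104353358), Trim30a (104409025 to 104465193) and Trim30d (104470014 to 104507853). Trim21 lies on the same chromosome, at 102557920 to 102565482. The other members are spread over the genome, with Trim14 on chromosome 4 (46505072 to 46536150), Trim56 on chromosome 5 (137111286 to 137116462), Trim25 on chromosome 11 (88999403 to 89020294) and Trim26 on chromosome 17 (36837123 to 36859398).

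The libraries held between 34302971 and 34537939 counts, and the 3 counts taken as the floor of detection stood for 0.0866 to 0.0876 CPM (counts scaled to a common library size). Labels were checked against known responders. Irf1, an early transcription factor gene of the IFN-γ response, rose 5.41-fold with IFN-γ in the additive model described below, and Irf9 rose 1.76-fold. The hypoxia-inducible genes Car9, Egln3 and Bnip3 rose 4.4-fold, 2.24-fold and 3.2-fold with hypoxia. Defining epithelial markers were close to absent: of 8 listed, Cdh1 and Cdx2 were at 0 in every library, 4 were at or under 3 counts in every library, and only Krt8, Krt20 and Vil1 were above it in all 4, with a summed level of 2.48 to 3.26 CPM. Of 8 leukocyte markers, 5 were at or under 3 counts in every library, Cd8a, Adgre1 and Itgam among them at 0, and the sum was 0.438 to 1.41 CPM and lowest in the library with both stimuli. The sums were 0.758 to 1.44 CPM for 3 endothelial markers, with 1 at 0 in every library, and 38.6 to 46.3 CPM for 5 fibroblast markers, none of which was at 0. Pdgfra made up most of the last sum, at 31.4 to 38.8 CPM, while Pdgfrb, Dcn, Col1a1 and Col1a2 lay between 0.846 and 3.03 CPM each.

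With no replicate of any condition, both stimuli were fitted together in 1 additive model in edgeR (quasi-likelihood test, Benjamini-Hochberg adjustment over all tested genes, threshold 0.05). Its spread comes from how far a gene strays from the sum of both effects, with 1 residual degree of freedom per gene, pooled across genes, so differences between cultures and any interaction between the stimuli enter the same term. The very small adjusted p values of this fit depended strongly on its settings. For Trim12c with IFN-γ the edgeR adjusted p was 5.84e-85 (log2 change 1.701, SE 0.0853). With DESeq2 size factors as the scaling it was 1.23e-14 (1.704, SE 0.0815). Such values are therefore not a measure of replicate spread. Changes between 2 single libraries are log2 ratios of normalized CPM with a 95% interval that covers counting error only, and have no replicate check.

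All 10 genes rose with IFN-γ, by 1.16-fold (Trim25) to 4.12-fold (Trim21). The median log2 change was 1.21, against -0.01 over the 13580 genes tested. None fell. Over all genes tested, 4.76% were raised by IFN-γ and 1.1% were lowered. The members were chosen with earlier results of these data known. The shares given here, for IFN-γ and for hypoxia, therefore describe the list and do not test it. With hypoxia 5 of the 10 rose and 0 fell, against 8.21% of all tested genes raised and 6.83% lowered, and the median log2 change was 0.26 against 0.01 over all tested genes. Those 5 were Trim12c, Trim14, Trim12a, Trim30a and Trim30d, so they were raised by both stimuli, as were 128 of all tested genes (0.943%). Trim12a with Trim12c and Trim30a with Trim30d are related copies that share sequence, so the 5 are not 5 independent genes. The hypoxia calls were sensitive to the analysis: in the 6 other fits of these same 10 genes the count raised lay between 0 and 2, and only Trim12c (5 of 6) and Trim30a (4 of 6) passed in any of them.

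**Figure D2:**
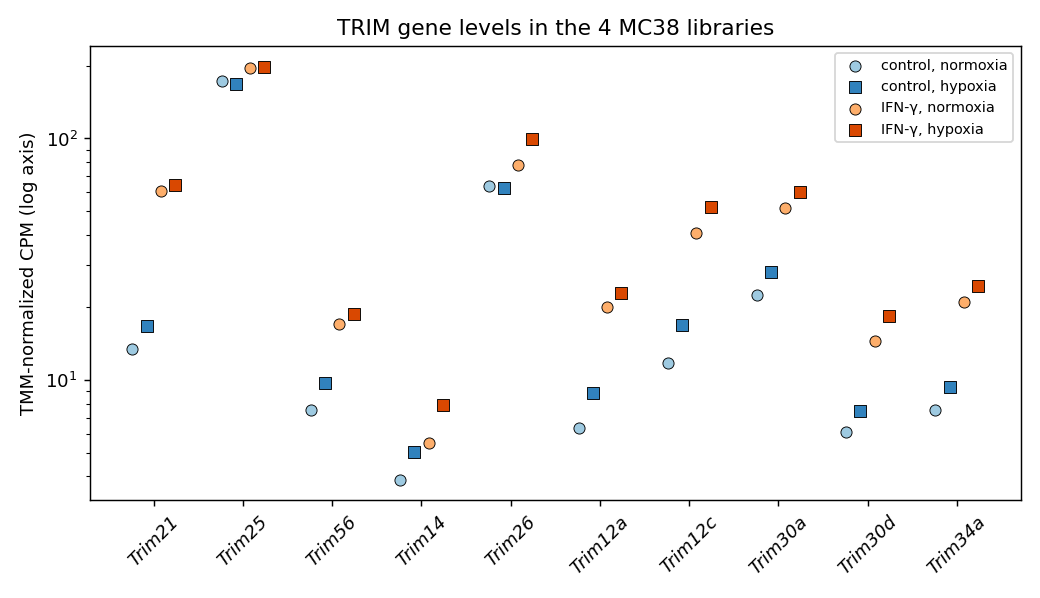
Normalized level of each TRIM gene in each library (TMM-normalized CPM, log axis; 1 point per library, no error because there are no replicates). Both IFN-γ points of every gene lie above both control points, with a wide gap for Trim21 and narrow ones for Trim25 and Trim14. For Trim14 the control hypoxia point (5.06 CPM) lies just below the IFN-γ normoxia point (5.51 CPM).

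The group's counts are given throughout in the order control normoxia, control hypoxia, IFN-γ normoxia and IFN-γ hypoxia. The 10 genes together took 10929, 11515, 17310 and 19408 counts, or 0.0319%, 0.0334%, 0.0501% and 0.0564% of each library. Trim25 alone made up 54.8%, 50.5%, 38.9% and 35% of those counts, so the most abundant member was also the one that moved least. For all 10 genes the lower of the IFN-γ libraries was above the higher of the control libraries, though for Trim14 only by 189 against 175 counts.

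Trim21 encodes a cytosolic antibody receptor that ubiquitinates antibody-coated virus, and it had the strongest response to IFN-γ among the members. It took 466, 582, 2072 and 2196 counts. Both IFN-γ libraries stood far above both control libraries. The log2 change with IFN-γ was 2.04 (SE 0.082, edgeR adjusted p = 1.21e-131), which placed the gene at rank 115 of the 13580 tested. At nearly the same change, the edgeR adjusted p was 1.72e-16 with DESeq2 size factors and 0.000481 without oxygen as a term. Under normoxia the single-pair change was 2.17 (95% counting interval 2.02 to 2.32) and under hypoxia 1.93 (1.80 to 2.06). The hypoxia change of 0.18 (SE 0.0803) did not pass (edgeR adjusted p = 0.12). As single pairs, hypoxia gave 0.32 (0.15 to 0.50) without IFN-γ and 0.09 (-0.002 to 0.17) with it.

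Trim25 encodes a ubiquitin ligase that acts in RIG-I signalling, binds the antiviral protein ZAP and can also attach ISG15. The table held 5994, 5820, 6738 and 6797 counts for it. The control libraries lay close together, as did the IFN-γ libraries. Its log2 change with IFN-γ was 0.21 (SE 0.0568, edgeR adjusted p = 0.00531), rank 1608, and it passed in 5 of 7 other fits, over which the adjusted p ran from 0.0053 to 0.651. The pass at 0.0053 came from the fit with the chromosome 7 copies summed, which leaves the counts of Trim25 unchanged. The hypoxia change was -0.01 (SE 0.0568, edgeR adjusted p = 0.922), and neither single pair had a counting interval that left out 0: -0.04 (-0.09 to 0.01) without IFN-γ and 0.01 (-0.04 to 0.06) with it.

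Trim56, whose product is an RNA-binding ligase linked to cGAS and STING signalling, had 261, 337, 584 and 645 counts. Both IFN-γ libraries stood well above both controls. IFN-γ raised it by 1.06 on the log2 scale (SE 0.112, edgeR adjusted p = 3.61e-19, rank 295), by 1.18 under normoxia (0.96 to 1.39) and 0.95 under hypoxia (0.76 to 1.14) as single pairs. The hypoxia change of 0.24 (SE 0.112) did not pass (edgeR adjusted p = 0.134).

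Trim14 encodes a member without a RING domain that sits at mitochondria with the adaptor MAVS and also acts on cGAS. It was the least counted of the 10, with 134, 175, 189 and 270 counts. The control hypoxia and IFN-γ normoxia libraries were close, and the library with both stimuli stood highest. Its log2 change was 0.58 with IFN-γ (SE 0.162, edgeR adjusted p = 0.00795, rank 592) and 0.46 with hypoxia (SE 0.162, edgeR adjusted p = 0.0349). Neither call was stable, since IFN-γ passed in 5 of 7 other fits (adjusted p 0.00795 to 0.88) and hypoxia in 1 of 7 (0.0348 to 0.509). The only hypoxia pass (0.0348) came from the fit with the chromosome 7 copies summed. That fit leaves the counts of Trim14 unchanged and so repeats the main analysis for this gene, also for IFN-γ (0.00795). In GENCODE M21, 1356 exon bases of Trim14 (31.26%) overlap Nans on the opposite strand; the RefSeq coordinates of the 2 genes do not overlap. Nans took 1663, 1785, 1667 and 1509 counts and did not pass for either stimulus. The libraries kept the strand, but the strand setting used for counting is not given in the sources used here, so reads of the pair may not have been told apart.

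Trim26 encodes a ligase that acts on IRF3 and TBK1, which drive interferon-β production. Its counts were 2194, 2164, 2667 and 3414. The controls were close together, and the library with both stimuli stood apart from the one with IFN-γ alone. IFN-γ changed it by 0.49 on the log2 scale (SE 0.0668, edgeR adjusted p = 2.34e-11, rank 722), passing in 6 of 7 other fits (adjusted p 2.28e-11 to 0.2). The pass at 2.28e-11 came with the chromosome 7 copies summed, which leaves the counts of Trim26 unchanged, and the 0.2 without oxygen as a term. The SE draws on a spread pooled over genes, although the changes of this gene differed between the oxygen conditions. The single-pair change with IFN-γ was 0.30 under normoxia (0.21 to 0.38) and 0.67 under hypoxia (0.59 to 0.75). Hypoxia gave -0.02 (-0.10 to 0.07) without IFN-γ and 0.36 (0.28 to 0.43) with it. In the additive model, which averages those, the hypoxia change was 0.18 (SE 0.0668) and did not pass (edgeR adjusted p = 0.0551).

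Trim12a and Trim12c, with Trim34b between them on chromosome 7, are mouse relatives of the retrovirus restriction factor gene Trim5. The Trim12c product works with TRAF6 in interferon and NF-κB signalling. Trim12a took 219, 307, 687 and 783 counts. Its log2 change was 1.51 with IFN-γ (SE 0.11, edgeR adjusted p = 5.67e-40, rank 180) and 0.31 with hypoxia (SE 0.109, edgeR adjusted p = 0.0347, passed in 0 of 6 other fits, adjusted p 0.0554 to 0.878). Trim12c took 406, 583, 1392 and 1778 counts. It changed by 1.70 with IFN-γ (SE 0.0853, edgeR adjusted p = 5.84e-85, rank 148) and by 0.42 with hypoxia (SE 0.0841, edgeR adjusted p = 1.58e-05, passed in 5 of 6 other fits, adjusted p 0.000604 to 0.831), the clearest hypoxia call in the group. Both genes were higher in each hypoxia library than in its normoxia partner, with single-pair changes for Trim12c of 0.52 (0.34 to 0.71) without IFN-γ and 0.35 (0.25 to 0.46) with it.

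Trim30a and Trim30d are neighbours in the same cluster, and the Trim30a product restrains NF-κB signalling by promoting loss of TAB2 and TAB3. Trim30a had 783, 966, 1765 and 2052 counts. It rose with IFN-γ by 1.14 on the log2 scale (SE 0.0776, edgeR adjusted p = 1.92e-46, rank 265) and with hypoxia by 0.26 (SE 0.0771, edgeR adjusted p = 0.00915). Trim30d had 211, 257, 497 and 634 counts, and rose by 1.28 (SE 0.12, edgeR adjusted p = 9.87e-25, rank 226) and 0.33 (SE 0.119, edgeR adjusted p = 0.0428, passed in 0 of 6 other fits, adjusted p 0.0561 to 0.814). The order of the 4 libraries was the same for both genes.

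Trim34a, a mouse relative of the interferon-induced TRIM34 gene, lies at the edge of the cluster. It had 261, 324, 719 and 839 counts. Its log2 change with IFN-γ was 1.43 (SE 0.107, edgeR adjusted p = 1.25e-38, rank 193), and its hypoxia change of 0.26 (SE 0.105) did not pass (edgeR adjusted p = 0.0757). In GENCODE M21, 609 of its exon bases (23.5%) overlap the antisense gene Gm47248, with the same limit on strand as for Trim14. The neighbouring gene Trim6, outside the cluster as drawn above, had 248, 267, 288 and 295 counts and did not pass for IFN-γ (0.19, SE 0.136, edgeR adjusted p = 0.62).

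Genes of the cluster share sequence, so the split of reads between copies is uncertain. Of the 31-base words in the GENCODE M21 transcripts of each gene, 48.74% of those of Trim34a and 47.69% of those of Trim12c occur in another gene. The shares were 15.72% for Trim12a, 11.94% for Trim30d and 11.72% for Trim30a. Of words of 100 bases, the length of 1 read, 21.0% of Trim34a (shared with Trim34b), 8.05% of Trim12c, 2.87% of Trim12a, 4.57% of Trim30d and 4.41% of Trim30a were shared. For the 5 members outside the cluster the share was at most 0.04%. The copies themselves were low. Trim5 took 46, 56, 144 and 233 counts, Trim30c took 10, 4, 41 and 32, Trim30b 0, 5, 5 and 6, Trim34b 0, 3, 2 and 1, and Trim30e-ps1 was at 0 in every library, which allows up to 3 counts each. Summed over copies, the Trim12 genes with Trim5 took 671, 946, 2223 and 2794 counts, and changed by 1.66 with IFN-γ (SE 0.0768, edgeR adjusted p = 5.91e-99) and 0.40 with hypoxia (SE 0.0758, edgeR adjusted p = 4.03e-06). The Trim30 copies together took 1004, 1232, 2308 and 2724 counts, and changed by 1.19 (SE 0.0736, edgeR adjusted p = 1.24e-55) and 0.27 (SE 0.0731, edgeR adjusted p = 0.00361). These sums do not depend on how the counted reads were split among the copies of a set, and both stimuli passed for them. They were fitted with the main settings only, not with those in which hypoxia calls of single genes were lost. The Trim34 pair passed for IFN-γ (1.43) and not for hypoxia (0.27, SE 0.105, edgeR adjusted p = 0.0696).

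The response to IFN-γ was then set side by side in both oxygen conditions, to ask whether hypoxia alters it. The single-pair log2 change ran from 0.18 to 2.17 under normoxia, with a median of 1.22, and from 0.24 to 1.93 under hypoxia, with a median of 1.21. The difference, hypoxia minus normoxia, had a median of -0.09. Its 95% counting interval lay above 0 for 1 gene, Trim26 (0.38, 0.26 to 0.49), below 0 for 2, Trim21 (-0.24, -0.43 to -0.04) and Trim12a (-0.30, -0.59 to -0.01), and held 0 for 7. Among the 10443 genes that reached 100 counts in each of the libraries, 14.8% had such an interval above 0 and 19.7% below 0, and the central 95% of their differences ran from -0.36 to 0.40. The differences of Trim26, Trim21 and Trim12a all lay inside that range. With 1 library per condition these differences could not be tested against culture-to-culture spread. For the other 7 the intervals were, for Trim56, -0.23 (-0.51 to 0.06), for Trim12c, -0.17 (-0.38 to 0.04), for Trim34a, -0.09 (-0.37 to 0.19), for Trim30a, -0.09 (-0.25 to 0.08), for Trim25, 0.05 (-0.02 to 0.13), for Trim30d, 0.07 (-0.25 to 0.38), and for Trim14, 0.13 (-0.29 to 0.55).

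**Figure D3:**
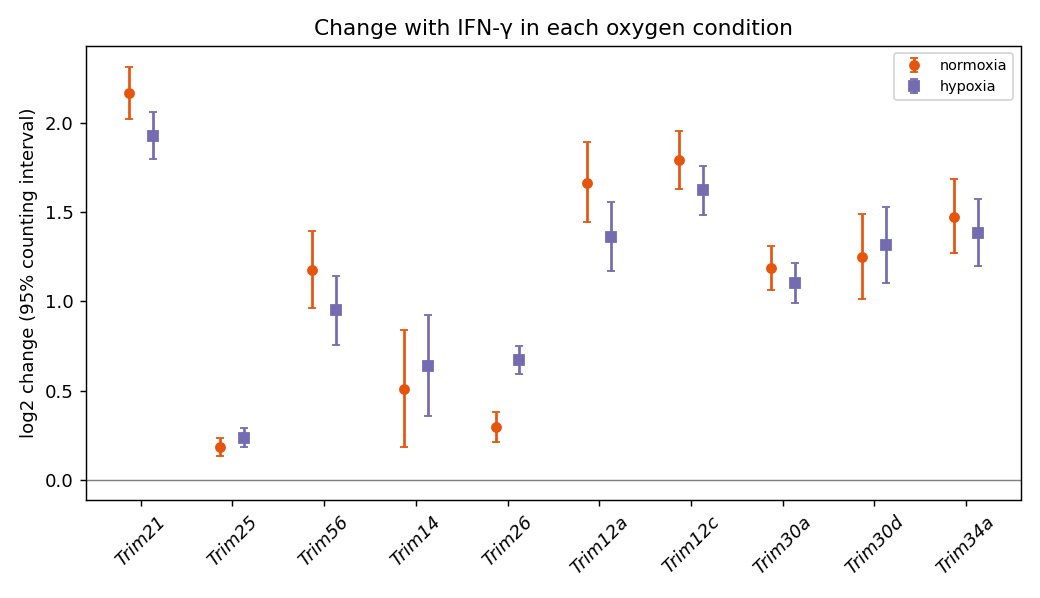
Log2 change with IFN-γ under normoxia (circles) and under hypoxia (squares) for each gene, with 95% counting intervals from 1 library per condition. The 2 points of a gene overlap in interval for 9 of the 10, and Trim26 is the exception, at 0.30 and 0.67.

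The hypoxia change without IFN-γ had a counting interval above 0 in 8 of the 10 genes, against 26.3% of the 10443 well-counted genes, and with IFN-γ in 7 of the 10, against 24%. Without IFN-γ the exceptions were Trim25 and Trim26, and with IFN-γ they were Trim25, Trim21 and Trim56. Trim12a with Trim12c and Trim30a with Trim30d are related copies here too, so these counts overstate the number of independent genes. The median change was 0.32 without and 0.22 with IFN-γ. The largest were 0.52 for Trim12c without IFN-γ and 0.52 for Trim14 with it, so hypoxia moved these genes far less than IFN-γ moved Trim21 or the chromosome 7 cluster. Combined over untreated cells, both stimuli together gave 4.76-fold for Trim21, 4.42-fold for Trim12c, 3.61-fold for Trim12a, 3.25-fold for Trim34a, 3.03-fold for Trim30d, 2.65-fold for Trim30a, 2.5-fold for Trim56, 2.03-fold for Trim14, 1.57-fold for Trim26 and 1.15-fold for Trim25.

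**Figure D4:**
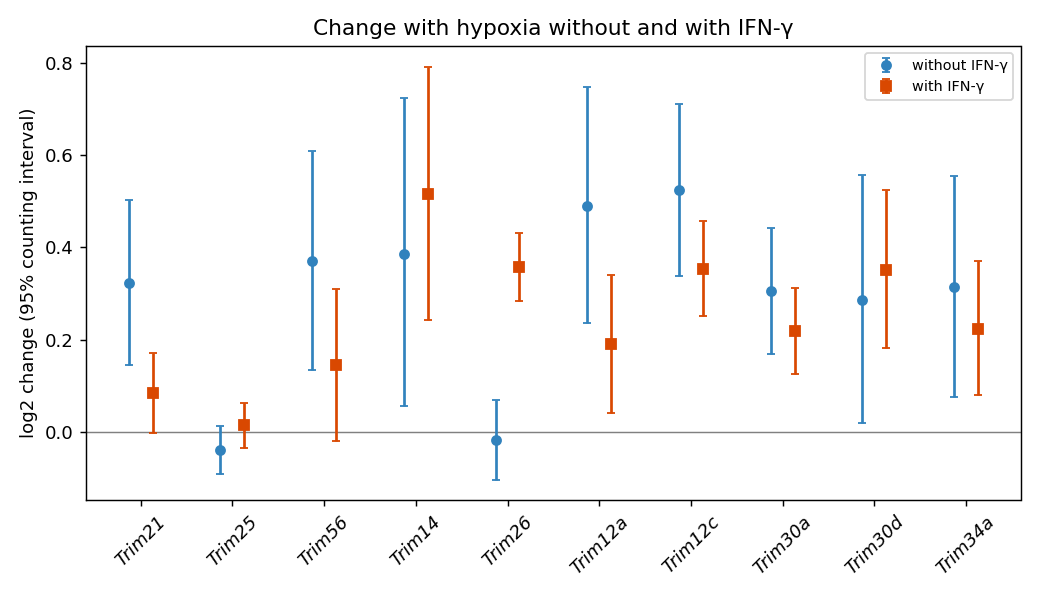
Log2 change with hypoxia without IFN-γ (circles) and with IFN-γ (squares) for each gene, with 95% counting intervals from 1 library per condition. Trim25 stays near 0 in both, and Trim26 goes from -0.02 without IFN-γ to 0.36 with it.

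Levels of different genes were compared per kilobase of transcript, using the longest GENCODE M21 transcript tied to a curated RefSeq one. Trim25 was the highest in every library, at 31 CPM per kb in the control normoxia library and 35.5 in the library with both stimuli. Trim26 followed, at 19.8 and 31.2. Trim21 went from 4.82 to 22.9 CPM per kb, from the fourth place to the third. Trim30a (5.99 to 15.9), Trim12a (4.25 to 15.4), Trim12c (3.13 to 13.9) and Trim34a (2.91 to 9.45) came next, and Trim14 (2.71 to 5.51), Trim30d (1.86 to 5.64) and Trim56 (0.812 to 2.03) were lowest. Trim25 kept the first place in all 4 libraries when the exons of all transcripts were used in place of that length. The places of Trim12a, Trim14 and Trim26 depended on the length, since their exons cover 1486, 1429 and 3198 bases in the chosen transcript and 5781, 4338 and 6868 bases over all transcripts. With the latter, Trim26 fell behind Trim21 and Trim30a in both IFN-γ libraries. Neighbours in this order have no replicate spread to be judged against.

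The other TRIM genes of the table were counted the same way. They are the family genes left after the members were chosen with earlier results known, so a contrast with the 10 members is descriptive only. Of 63 other family genes in the table, 38 passed the filter on low counts, and 3 of these rose and 0 fell with IFN-γ, against 4.76% and 1.1% of all tested genes, with a median log2 change of 0.00 over the 38. The 3 were Trim5 (1.88, SE 0.217, edgeR adjusted p = 3.46e-16), Trim30c (2.40, SE 0.529, edgeR adjusted p = 1.86e-04, at no more than 41 counts) and Pml (0.34, SE 0.0711, edgeR adjusted p = 8.26e-05), the scaffold of PML nuclear bodies. Pml took 1901, 1588, 2047 and 2306 counts, with an IFN-γ change of 0.12 (0.03 to 0.21) under normoxia and 0.55 (0.46 to 0.64) under hypoxia. Trim5 and Trim30c lie inside the chromosome 7 cluster. With hypoxia 3 of the 38 rose and 3 fell, against 8.21% and 6.83% of all tested genes, so both counts lie near the background. Trim47 fell by 0.34 on the log2 scale (SE 0.0638, edgeR adjusted p = 2.84e-06), with 3504, 2757, 3590 and 2826 counts. Trim15 rose by 2.33 (SE 0.728, edgeR adjusted p = 0.0135) on 2, 12, 5 and 24 counts. The other 4, named after their values were seen because they changed less, were Trim8 (0.24) and Trim41 (0.22), which rose, and Trim46 (-0.28) and Trim28 (-0.17), which fell. Of the 38, 0 passed for both stimuli. Over all tested genes 0.943% were raised by both, so this count lies near the background. Trim5 came close, with a hypoxia change of 0.56 (SE 0.212, edgeR adjusted p = 0.0546), a larger value than that of any of the 10, and single-pair values of 0.28 (-0.30 to 0.88) without IFN-γ and 0.69 (0.39 to 1.01) with it.

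**Figure D5:**
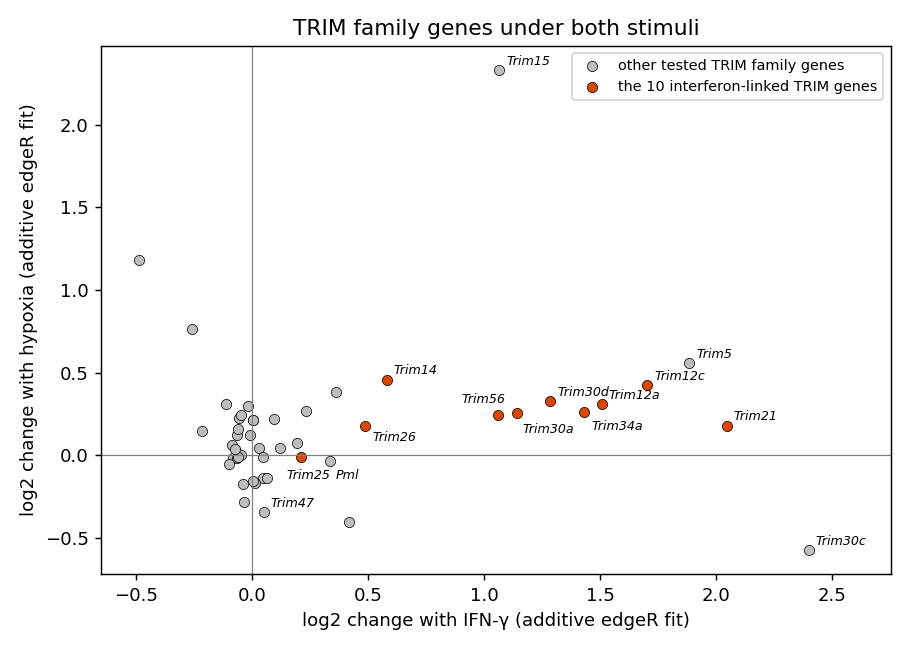
Log2 change with IFN-γ (horizontal) against log2 change with hypoxia (vertical) in the additive edgeR model for the 10 interferon-linked TRIM genes (orange) and the 38 other tested TRIM family genes (grey). The 10 spread along the IFN-γ axis from 0.21 to 2.04 and stay between -0.01 and 0.46 on the hypoxia axis.

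Proteins that TRIM ligases act on or work with formed a list of 28 genes, all of which passed the filter. This list was also chosen with earlier results of these data known. IFN-γ raised 13 of them and lowered 0, against 4.76% and 1.1% of all tested genes, with a median log2 change of 0.12. Those that rose most included the genes for attaching ISG15, a ubiquitin-like protein, to other proteins. Uba7, its activating enzyme, rose by 2.25 (SE 0.0919, edgeR adjusted p = 3.35e-127), Ube2l6, its conjugating enzyme, by 2.10 (SE 0.0676, edgeR adjusted p = 8.86e-202), Herc6, its main mouse ligase, by 1.15 (SE 0.0714, edgeR adjusted p = 1.3e-55), and Isg15 itself by 1.08 (SE 0.0654, edgeR adjusted p = 1.98e-58). Uba7 took 247, 392, 1334 and 1652 counts, and Isg15 1725, 2214, 3897 and 4306. The transcription factor gene Irf7 rose by 1.37 (SE 0.103, edgeR adjusted p = 2.71e-38), and Dhx58, which encodes the RIG-I relative LGP2, by 1.21 (SE 0.0994, edgeR adjusted p = 4.51e-32).

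Hypoxia raised 4 of the 28 partners and lowered 1, with a median log2 change of 0.04. Over all tested genes 8.21% were raised and 6.83% lowered, so these counts are not read as a result about the list. The raised genes were Uba7 (0.44, SE 0.0896, edgeR adjusted p = 3.25e-05), Ikbkg, which encodes the NF-κB regulator NEMO (0.30, SE 0.0679, edgeR adjusted p = 0.00018), Isg15 (0.25, SE 0.0649, edgeR adjusted p = 0.00214) and Herc6 (0.20, SE 0.0709, edgeR adjusted p = 0.0317). Cgas, the cytosolic DNA sensor gene, fell by 0.24 (SE 0.0708, edgeR adjusted p = 0.00968), while IFN-γ raised it by 0.28 (SE 0.0708, edgeR adjusted p = 0.00265). Its counts were 1935, 1661, 2346 and 1968, lower in each hypoxia library than in its normoxia partner.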

How the data were processed

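The authors deposited raw gene-level read counts, not normalized, for 4 libraries (poly-A selected, strand-specific, paired-end reads on a DNBSEQ instrument). Per the paper's methods reads were aligned with HISAT2; the submitters' processing notes name featureCounts and mm10, and the counting annotation, its strand setting and its treatment of reads matching several genes are not given in the sources used here. Gene symbols came from RefSeq for GRCm38.p6 and matched 25275 of 27179 IDs. No count column was left without a sample.

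Counts were analysed in edgeR 4.0.16 (R 4.3.3) with TMM normalization, its default low-count filter (minimum 10 counts), terms for IFN-γ and oxygen, a quasi-likelihood test and Benjamini-Hochberg adjustment at 0.05; 13580 genes were tested. Single-pair log2 ratios used 0.5 added counts and 95% Clopper-Pearson intervals, and differences of IFN-γ changes 95% Poisson intervals; both, and the 3-count floor, cover counting error only. The main edgeR fit was run for IFN-γ on simulated counts with the same spread for every gene and no interaction between the stimuli. That run cannot show how the fit behaves where the spread differs between genes or the stimuli interact. Alternatives were DESeq2 1.42.0 (Wald test), DESeq2 size factors, library totals, no filter, at least 10 counts in every library, each stimulus without the other as a term, and copies summed.

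Named genes were all 10 members, other TRIM genes past the threshold for either stimulus with a log2 change of at least 0.3, partners past it for IFN-γ with at least 1 or for hypoxia with any, the stimulus markers, of which 1 is not reported here, and the copies. The members and lists were chosen with earlier results of these data known. Motifs were searched on both strands of RefSeq promoters, and shared words in GENCODE M21 transcripts.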

Additional observations from a re-analysis of the deposited data

Results flagged for a closer look

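The hypoxia values of Trim26 and Trim25 had opposite signs without and with IFN-γ, and neither gene passed for hypoxia in edgeR. For Trim26 the log2 change with hypoxia was -0.017 without IFN-γ, with a 95% counting interval that held 0 (-0.104 to 0.069), and 0.358 with it (0.284 to 0.431). For Trim25 it was -0.040 and 0.014, both with counting intervals that held 0, so the sign of 3 of these 4 values is not fixed by the counts. These differences were not tested, since each condition has 1 library.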

How the results depend on the processing

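With 1 library per condition, leaving out a library leaves no residual degrees of freedom, so no such fit was run. No paired analysis was possible because each condition has 1 library. Members raised by IFN-γ numbered 10 in the main analysis and 7 to 10 in the others: DESeq2's Wald test lost Trim14 and Trim25, and the fit without oxygen lost those and Trim26. The remaining members passed in every fit that held them. Their highest adjusted p lay between 0.000481 (Trim21) and 0.0229 (Trim56), both from edgeR without oxygen as a term. Members raised by hypoxia numbered 5 in the main analysis, 2 with DESeq2 size factors, 2 with library totals, 1 with DESeq2's Wald test, 2 with no filter, 2 with at least 10 counts in every library, 0 in edgeR without IFN-γ as a term, and 3 of 8 features with copies summed. In the fit that gave 0, an unadjusted p under 0.05 was also reached by 0 members, against 2 in DESeq2 and 9 in the main analysis; leaving out IFN-γ puts its change into the spread. No direction of a called change reversed. The median difference between IFN-γ changes was -0.09 in the main analysis and stayed between -0.09 and -0.07 under other scalings, with 5 counts added and with copies summed. Over all genes, IFN-γ raised 647 and lowered 149 and hypoxia raised 1115 and lowered 927; DESeq2's Wald test gave 353, 16, 360 and 203, and the fits without the other stimulus 239, 3, 150 and 26. With DESeq2 size factors IFN-γ lowered 99, with no filter 71, and with at least 10 counts in every library 74. Trim14, at 134 to 270 counts, had the widest counting intervals among the members.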
